A study of Homo sapiens with 4 samples.

Results

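The genes that encode the integrins and the laminins, the adhesion receptors of epithelial cells and a main group of their ligands, were followed in HCC1954 breast cancer cells with and without ZDHHC15. They were taken as the protein-coding genes whose symbol is that of an integrin alpha subunit (ITGA), an integrin beta subunit (ITGB) or a laminin chain (LAMA, LAMB, LAMC), which gave 38 of the 58735 genes and of the 19951 protein-coding genes in the count table. They comprised 18 integrin alpha subunits, 8 integrin beta subunits and 12 laminin chains, of which 5 were alpha, 4 beta and 3 gamma. The largest difference among the abundant subunits was that of ITGB6, which rose 3.46-fold in shZDHHC15 cells. ITGB5, another partner of the same alpha subunit, fell to 0.824 of its shCON level. That fall did not pass the test with scaling by library size only or against a fold change of 1.2. The rise of ITGB6 passed both.

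HCC1954 is an established human breast cancer line, grown here in RPMI-1640 with serum. ZDHHC15 is a palmitoyltransferase, an enzyme that attaches the lipid palmitate to proteins. The groups compared, of 2 samples each, were shCON with a scrambled control hairpin and shZDHHC15 with a hairpin from the GIPZ lentiviral collection against ZDHHC15. The study asked how loss of ZDHHC15 bears on tumour progression and cell migration. The labels speak of a stable knockdown and also of a transient Lipofectamine transfection harvested after 36 h, so which applies is not settled, and they do not say whether the 2 samples of a group were separate cultures or hairpins. P-values therefore measure only the spread between these samples, which may be technical. Total RNA was used, so fewer cells of a type and less RNA per cell cannot be told apart.

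An integrin is a pair of 1 alpha and 1 beta subunit that spans the plasma membrane, binds matrix outside the cell and is linked through adaptors to actin or, for ITGA6 with ITGB4, to keratin at hemidesmosomes. A laminin is a trimer of an alpha, a beta and a gamma chain that forms the sheet of the basement membrane beneath epithelia. In breast epithelium laminin that holds LAMA3 and LAMB3 anchors cells through the pairs of ITGA6 with ITGB4 and of ITGA3 with ITGB1, while pairs with ITGAV, and that of ITGA5 with ITGB1, bind ligands such as fibronectin, and those with ITGB6 or ITGB8 also bind and activate latent TGF-beta.

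The libraries held between 17560982 and 19118704 counts. ZDHHC15 had 17617 and 15716 counts in the shCON samples and 0 in both shZDHHC15 samples, where an observed 0 allows up to 3. RNA interference usually leaves part of its target transcript, and of the 3772 genes with at least 1000 counts in both shCON samples ZDHHC15 was the only 1 at 0 in both shZDHHC15 samples. The epithelial markers were present in all samples. Their summed level was 17209 and 18682 CPM (counts scaled to a library of 1e+06) in shCON and 10286 and 10499 CPM in shZDHHC15. At an adjusted p under 0.05, 6 of the 8 were lower in shZDHHC15, 1 was higher and 1 was not called. Of all tested genes, 20.3% were lower and 21.7% higher at that threshold. Markers of endothelium summed to 57.5 CPM in each shCON sample and to 108 and 101 CPM in shZDHHC15, with none of the 5 at 0 everywhere. Of the 3 endothelial markers that were tested, 2 were higher (66.7%) and 1 was lower (33.3%). The 7 fibroblast markers summed to 5.81 and 7.23 CPM in shCON and to 11.5 and 8.61 CPM in shZDHHC15, with LUM at 0 everywhere, and COL1A1, the 1 of them that was tested, was higher (log2 fold change 0.65 ± 0.21, adjusted p = 0.0232). Their part in the results was not tested.

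Of the 38 subunit genes, 28 passed the filter on low counts and were tested. The other 10 were ITGA4, ITGA8, ITGA9, ITGA11, ITGAD, ITGAM, ITGAX, ITGB7, LAMA4 and LAMB4, none of which exceeded 12 counts in any sample. ITGA8 and ITGAD were at 0 counts in all 4 samples. At an adjusted p under 0.05 the test called 7 of the 28 higher and 7 lower in shZDHHC15, or 25.0% in each direction. Of all 15817 tested genes, 21.7% were called higher and 20.3% lower, 42.0% in all. Groups did not overlap for 11 subunits that were higher and 8 that were lower, beside 37.2% and 35.3% of all tested genes, 72.5% in all. The shares of called subunits thus lay near those of all genes, so the counts alone set the subunits apart in neither direction. The median log2 fold change was 0.19 for the 28 subunits and 0.02 for all tested genes. With scaling by library size only the split was 8 higher and 4 lower, and without shZDHHC15 replicate 1 the count of lower subunits was 3.

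**Figure D1:**
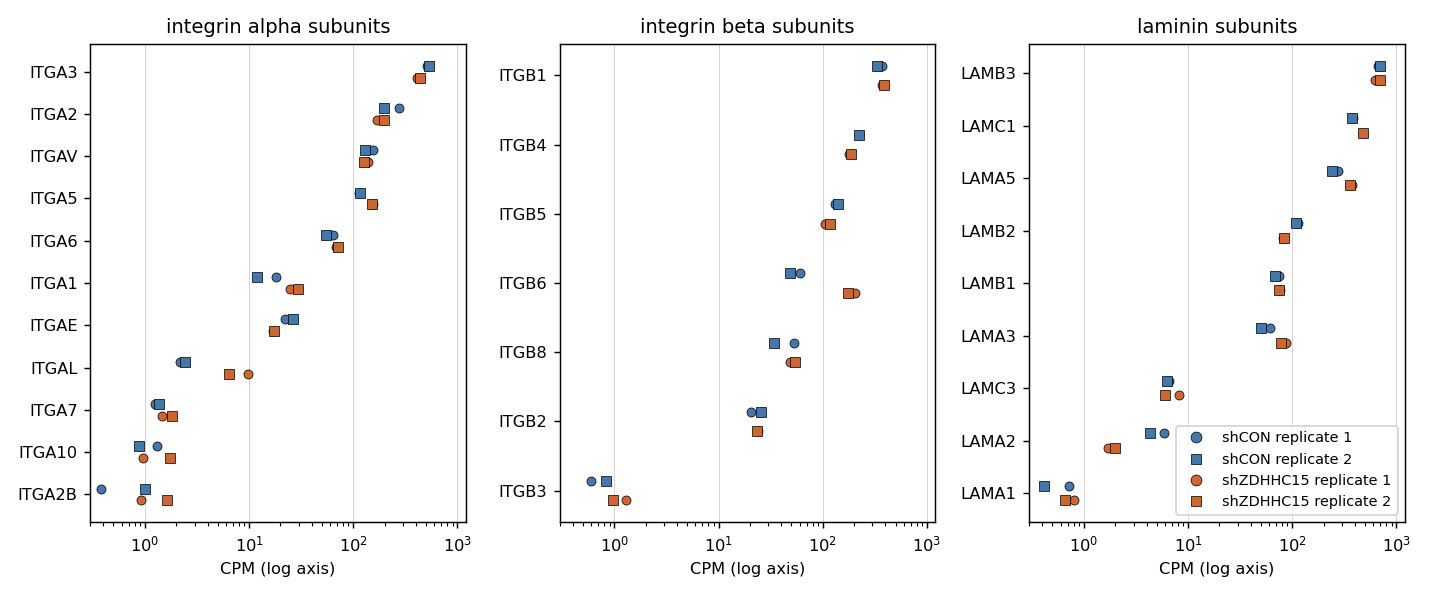
CPM on a log axis of the tested subunits in each of the 4 samples, in panels for integrin alpha, integrin beta and laminin subunits, with blue points for shCON, orange points for shZDHHC15, circles for replicate 1 and squares for replicate 2. The orange points of ITGB6 and ITGAL stand clear to the right of the blue points and those of LAMA2 clear to the left, while for ITGAV, LAMB1 and LAMB3 the 2 groups overlap.

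Of the 18 integrin alpha subunits the filter kept 11, with 3 called higher and 3 called lower. These were 27.3% in each direction, beside 21.7% higher and 20.3% lower among all tested genes. The rises were ITGAL, ITGA1 and ITGA5 and the falls ITGAE, ITGA2 and ITGA3. The median log2 fold change of the 11 was 0.29. With library size only the split was 4 higher and 2 lower, and without shZDHHC15 replicate 1 only 1 alpha subunit was called lower.

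ITGA5 (chr12:54395261-54419460, minus strand, GRCh38), the alpha subunit of the classical fibronectin receptor, was measured at 113 and 116 CPM in shCON and at 155 and 153 CPM in shZDHHC15. Both shZDHHC15 samples lay above both shCON samples and the replicates of each group lay close together. The log2 fold change was 0.42 ± 0.09 (SE) with an adjusted p of 0.00187. ITGA1 (chr5:52787896-52959210, plus strand), a collagen-binding alpha subunit, had 18.0 and 12.0 CPM in shCON and 24.9 and 29.3 CPM in shZDHHC15, again without overlap. Its log2 fold change was 0.85 ± 0.17 with an adjusted p of 0.00101. The exons of ITGA1 share 475 bases, or 2.56% of its exon length, with PELO on the same strand. PELO had a mean of 810.5 counts, more than the 203 to 576 counts of ITGA1. Some reads on the shared bases cannot be assigned to either gene with certainty. ITGA1 also shares stretches of 75 bases with genes elsewhere in the genome, such as 39 with MFN1. The part of such reads in the rise of ITGA1 was not tested.

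ITGA2 (chr5:52989326-53094779, plus strand), the other collagen-binding alpha subunit detected at a sizeable level, lies 30116 bases downstream of ITGA1 with no coding gene between. ITGA2 had 273 and 200 CPM in shCON and 167 and 198 CPM in shZDHHC15. The 2 groups came within a few CPM of each other at shCON replicate 2 and shZDHHC15 replicate 2. Its log2 fold change was -0.37 ± 0.13 with an adjusted p of 0.0314, and it moved to -0.16 without shCON replicate 1 (adjusted p = 0.229) and to -0.26 without shZDHHC15 replicate 1 (adjusted p = 0.183). These neighbouring genes for collagen receptors therefore gave opposite signs, a rise in ITGA1 and, in the fit with all samples, a fall in ITGA2.

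ITGA3 (chr17:50055968-50090481, plus strand), the alpha subunit of a laminin receptor and the alpha subunit with the highest RPKM in all 4 samples, had 508 and 538 CPM in shCON and 414 and 438 CPM in shZDHHC15. The groups did not overlap, and the log2 fold change was -0.30 ± 0.09 with an adjusted p of 0.0134, which became 0.174 without shZDHHC15 replicate 1. ITGAE (chr17:3714628-3801243, minus strand), which pairs with ITGB7 to bind E-cadherin, had 22.3 and 26.4 CPM in shCON and 16.9 and 17.5 CPM in shZDHHC15. The log2 fold change of ITGAE was -0.50 ± 0.14 with an adjusted p of 0.0085. HASPIN lies on the opposite strand over 6.41% of the exon bases of ITGAE. It had a mean of 419.5 counts, about as many as the 315 to 445 counts of ITGAE, and its part in the fall of ITGAE was not tested. The beta partner ITGB7 did not exceed 10 counts in any sample.

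ITGA6, the alpha subunit of the hemidesmosome integrin, was measured at 64.2 and 54.7 CPM in shCON and at 67.8 and 71.7 CPM in shZDHHC15. The shZDHHC15 samples were the higher ones without overlap, but the log2 fold change of 0.23, with a 95% interval from -0.0032 to 0.46, did not pass the test (adjusted p = 0.106). It was called higher with library size only (adjusted p = 0.0461) and without shCON replicate 1 (adjusted p = 0.0236). ITGAV, the partner of several beta subunits, had 153 and 130 CPM in shCON and 138 and 128 CPM in shZDHHC15. The groups overlapped, and the interval of its log2 fold change ran from -0.31 to 0.13 (adjusted p = 0.505). ITGA2B, the platelet alpha subunit, and ITGA7 and ITGA10 stayed under 2 CPM in all samples and were not called. The 5 platelet markers summed to between 1.61 and 2.30 CPM, with PF4 and GP9 at 0 everywhere.

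ITGAL (chr16:30472658-30523185, plus strand), the alpha subunit of the leukocyte integrin that binds ICAM1, was low but rose in proportion as much as ITGB6. It had 40 and 41 counts in shCON and 181 and 125 counts in shZDHHC15, or 2.19 and 2.43 CPM against 9.72 and 6.37 CPM. The log2 fold change was 1.79 ± 0.27 with an adjusted p of 9.13e-05, and both shZDHHC15 samples were the higher ones. The 13 leukocyte markers summed to 16.8 and 17.5 CPM in shCON and to 12.4 and 12.8 CPM in shZDHHC15, and of the 4 that were tested 1 was higher and 2 were lower. The 1 that rose was CD14, at 0.494 and 0.296 CPM in shCON and 1.34 and 1.12 CPM in shZDHHC15 (log2 fold change 1.61 ± 0.49, adjusted p = 0.0159), and those that fell were CSF1R and CD8A. Of these markers CD3E, CD3D, CD2 and MS4A1 were at 0 counts in all samples, and PTPRC, the pan-leukocyte marker, did not exceed 4 counts. The part of such cells in the rise of ITGAL was not tested. The beta partner ITGB2 had 20.6 and 25.4 CPM in shCON and 24.2 and 23.4 CPM in shZDHHC15 and was not called (log2 fold change 0.05, interval -0.24 to 0.34, adjusted p = 0.79). Per kilobase, ITGB2 was 9.45 ± 0.70 (SD, n = 2) times as abundant as ITGAL in shCON and 2.94 ± 0.80 times in shZDHHC15.

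**Figure D2:**
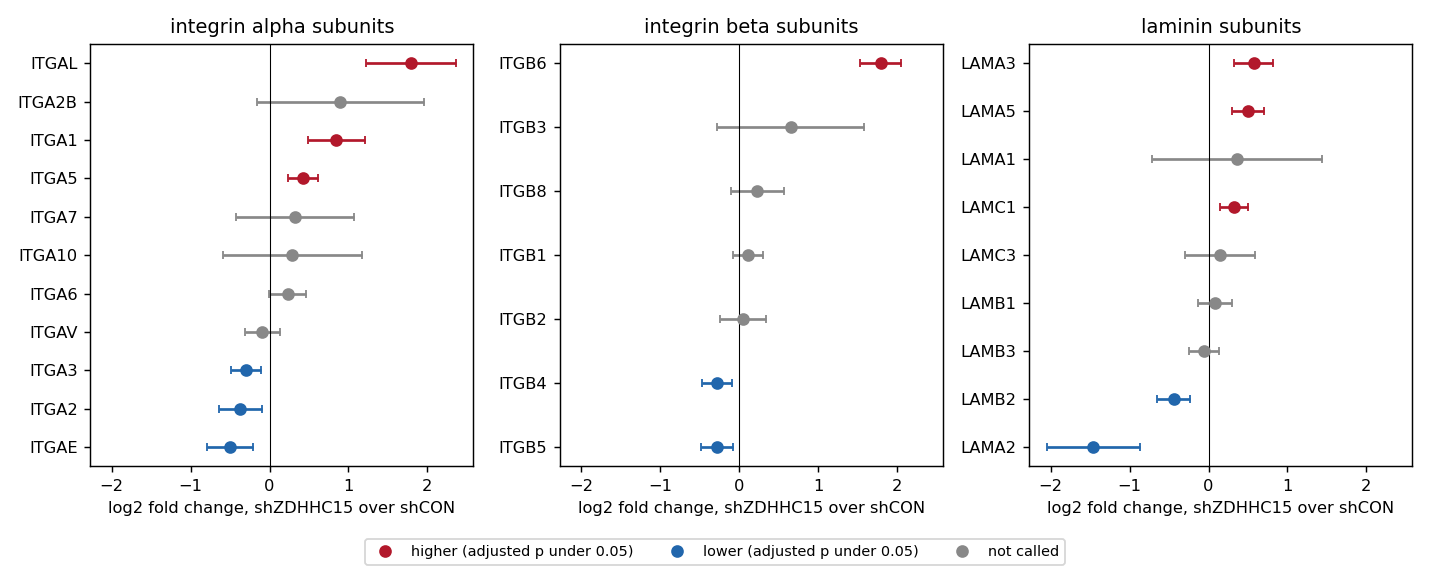
Fitted log2 fold change of shZDHHC15 over shCON for the tested subunits with 95% intervals from the edgeR fit, in panels for integrin alpha, integrin beta and laminin subunits. Red points passed the test as higher, blue points as lower and grey points were not called. ITGAL and ITGB6 lie at 1.79 and LAMA2 at -1.46, and the other called subunits lie between -0.50 and 0.85.

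Among the integrin beta subunits, 7 of 8 were tested, of which ITGB6 was higher and ITGB4 and ITGB5 were lower in shZDHHC15. That is 14.3% higher and 28.6% lower, beside 21.7% and 20.3% of all tested genes. ITGB1, the most abundant beta subunit per length and the partner of most alpha subunits, was not called. The median log2 fold change of the 7 was 0.11. Both falls were lost with library size only, which left 1 higher and 0 lower, and both were lost without either 1 of the shZDHHC15 samples. Leaving out shCON replicate 1 gave 2 higher, with ITGB8 added.

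ITGB6 (chr2:160099666-160200313, minus strand) encodes an epithelial beta subunit that pairs with ITGAV alone. It was measured at 61.2 and 48.1 CPM in shCON and at 206 and 173 CPM in shZDHHC15. The lower shZDHHC15 sample thus lay far above the higher shCON sample. The log2 fold change was 1.79 ± 0.12, with a 95% interval from 1.53 to 2.06 and an adjusted p of 4.02e-08, and it lay between 1.62 and 1.95 when each sample was left out in turn. AC092153.1, a transcript on the same strand with a mean of 2.25 counts, shares 20.6% of the exon bases of ITGB6. The exons of all other tested subunits except ITGB3 overlapped other genes over smaller shares of their length.

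The window of 250 bases upstream of the ITGB6 start in RefSeq (GRCh38.p14) is shown because this gene differed the most among the abundant subunits. GENCODE places the start of the gene inside this window. Its GC content of 30.0% was the lowest of the 33 windows that RefSeq gave for 26 of the 38 subunits, whose median was 60.0%, beside a median of 58.0% for all 35116 windows, of which 1.75% were at or under 30.0%. It holds 0 CpG and no match to the 3 motifs searched, so no letters are in capitals. The motifs were the TEAD site GGAATG, the AP-1 site TGANTCA and the pattern of interferon-response elements, in which TTTC is followed after 2 bases by a further TTTC.
ITGB6, chr2:160200273-160200522, minus strand: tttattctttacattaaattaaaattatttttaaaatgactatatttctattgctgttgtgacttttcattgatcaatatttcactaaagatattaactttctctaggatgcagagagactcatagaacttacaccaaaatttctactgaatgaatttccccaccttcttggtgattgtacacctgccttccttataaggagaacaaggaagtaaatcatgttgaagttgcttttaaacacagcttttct

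ITGB5 (chr3:124761948-124901418, minus strand), a vitronectin receptor subunit that also pairs with ITGAV, had 132 and 139 CPM in shCON and 106 and 117 CPM in shZDHHC15. The groups did not overlap, and the log2 fold change was -0.28 ± 0.10 with an adjusted p of 0.0302. It was 0.0539 without shCON replicate 2, 0.297 without shZDHHC15 replicate 1 and 0.054 without shZDHHC15 replicate 2. ITGB8, the other TGF-beta-activating partner of ITGAV, had 53.2 and 34.2 CPM in shCON and 48.7 and 54.1 CPM in shZDHHC15. Its shCON samples differed more than its group means, and the log2 fold change was 0.23 with an interval from -0.10 to 0.57 (adjusted p = 0.257), or 0.56 without shCON replicate 1 (adjusted p = 0.000137). ITGB3, the platelet and endothelial partner of ITGAV, stayed under 1.3 CPM in all samples, and AC068234.1 at 0 counts covers 51.6% of its exon bases.

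Per kilobase of exon, the make-up of the partners of ITGAV other than ITGB1 changed order. ITGB6 made up 35.1% and 30.0% of the summed RPKM of ITGB3, ITGB5, ITGB6 and ITGB8 in the shCON samples and 68.7% and 62.8% in the shZDHHC15 samples. ITGB5 went from 59.0% ± 5.5 (SD, n = 2) to 28.3% ± 3.5, so ITGB5 led in both shCON samples and ITGB6 in both shZDHHC15 samples. The difference for ITGB6 was 33.2 percentage points, and with 2 samples a group an exact two-sided permutation test could not go below the p of 0.333 that it gave. With ITGB1 included, ITGB6 made up 12.4% ± 1.2 in shCON and 32.5% ± 3.3 in shZDHHC15, and ITGB1 62.0% ± 0.4 and 50.7% ± 1.9. In the pair of ITGAV and ITGB6 the subunit with the lower RPKM was ITGB6 in shCON (11.7 RPKM) and ITGAV in shZDHHC15 (16.2 RPKM).

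**Figure D3:**
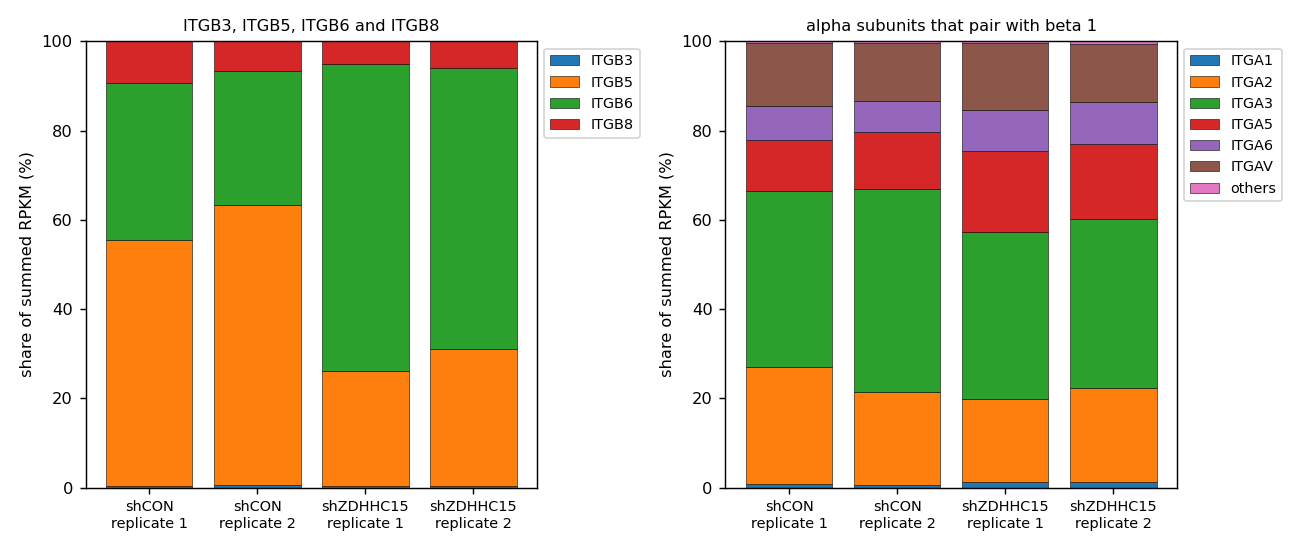
Share of summed RPKM in percent in each of the 4 samples, for the 4 beta subunits that pair with ITGAV other than ITGB1 (left) and for the alpha subunits that pair with ITGB1 (right, with those under 1% in every sample pooled as others). ITGB6 fills 35.1% and 30.0% of the left bars in shCON and 68.7% and 62.8% in shZDHHC15, and ITGA3 is the largest part of every right bar.

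ITGB4 (chr17:75721328-75757818, plus strand), the hemidesmosome beta subunit that pairs with ITGA6, had 221 and 224 CPM in shCON and 179 and 188 CPM in shZDHHC15. The groups did not overlap, and the log2 fold change was -0.28 ± 0.09 with an adjusted p of 0.0222. The adjusted p was 0.209 without shZDHHC15 replicate 1 and 0.0843 without shZDHHC15 replicate 2. Per kilobase, ITGB4 exceeded ITGA6 by 3.64 ± 0.44 times in shCON and by 2.54 ± 0.02 times in shZDHHC15.

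ITGB1 had 369 and 332 CPM in shCON and 374 and 384 CPM in shZDHHC15. Its shZDHHC15 samples were higher without overlap, but the log2 fold change of 0.11, with an interval from -0.08 to 0.31, did not pass the test (adjusted p = 0.332). ITGB1 shares 535 stretches of 75 bases with AC022149.1, so reads from those stretches could come from either gene. Among the alpha partners of ITGB1, the share of summed RPKM held by ITGA5 was 12.0% ± 0.9 in shCON and 17.6% ± 0.8 in shZDHHC15, that of ITGA3 was 42.5% ± 4.2 and 37.6% ± 0.2, and that of ITGA2 was 23.6% ± 3.8 and 19.9% ± 1.7. The shares of ITGA5 did not overlap between groups, the shares of ITGA3 did not either, and the exact permutation test gave p = 0.333 for both, the smallest it can give.

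Read as pairs, 9 of the 24 known heterodimers had both subunits above 1 RPKM in every sample. They were the pairs of ITGB1 with ITGA2, ITGA3, ITGA5, ITGA6 and ITGAV, of ITGAV with ITGB5, ITGB6 and ITGB8, and of ITGA6 with ITGB4. In the pair of ITGA1 and ITGB1 the subunit with the lower RPKM was ITGA1, at 0.969 and 0.648 RPKM in shCON and 1.34 and 1.58 RPKM in shZDHHC15. It thus passed 1 RPKM in the shZDHHC15 samples alone. The length used for ITGA1, 18566 bases, covers the exons of all its transcripts, so its RPKM may be understated. Of the 9 pairs, none had both subunits called in the same direction, and in each pair with a called subunit the partner was not called. Protein at the cell surface was not measured here.

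Among the laminin chains, 10 of 12 were tested. LAMA3, LAMA5 and LAMC1 were higher and LAMA2 and LAMB2 lower in shZDHHC15, and the median log2 fold change was 0.11. The counts of 3 higher and 2 lower were the same with every scaling tried.

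LAMA5 (chr20:62307955-62367312, minus strand), the alpha chain of most adult epithelial basement membranes, had 277 and 241 CPM in shCON and 376 and 357 CPM in shZDHHC15. Both shZDHHC15 samples were well above both shCON samples, and the log2 fold change was 0.50 ± 0.10 with an adjusted p of 0.000709. ADRM1, on the opposite strand with a mean of 4095.5 counts, overlaps 1.71% of the exon bases of LAMA5. LAMA3 (chr18:23689443-23956222, plus strand), the alpha chain of the anchoring laminin of hemidesmosomes, had 61.4 and 49.9 CPM in shCON and 87.9 and 77.5 CPM in shZDHHC15. The groups did not overlap, and the log2 fold change was 0.57 ± 0.12 with an adjusted p of 0.00132. LAMA2 (chr6:128883141-129516569, plus strand), the alpha chain of muscle and nerve basement membranes, was low and fell further, from 5.92 and 4.27 CPM in shCON to 1.72 and 1.99 CPM in shZDHHC15. Its log2 fold change was -1.46 ± 0.28 with an adjusted p of 0.00068. LAMA1, the embryonic alpha chain, stayed under 1 CPM in all samples and was not called.

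Per kilobase, LAMA5 made up 80.7% ± 0.9 of the summed laminin alpha chains in shCON and 81.4% ± 0.7 in shZDHHC15, and LAMA3 16.8% ± 0.6 and 17.9% ± 0.8. The rank of the abundant alpha chains was therefore the same in both groups, with LAMA5 above LAMA3, while LAMA2 went from 2.18% ± 0.26 to 0.57% ± 0.08. The lengths used cover the exons of all transcripts of a gene, so the RPKM of a gene that uses a short transcript, as LAMA3 can, is understated.

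LAMB2 (chr3:49121114-49133118, minus strand) had 115 and 110 CPM in shCON and 81.5 and 83.6 CPM in shZDHHC15. It replaces LAMB1 in trimers of mature basement membranes. The groups did not overlap, and the log2 fold change was -0.44 ± 0.10 with an adjusted p of 0.00182. LAMB1 had 75.1 and 67.8 CPM in shCON and 77.1 and 74.4 CPM in shZDHHC15, with overlap between groups (log2 fold change 0.08, interval -0.13 to 0.30, adjusted p = 0.543). LAMB3, the beta chain of the anchoring laminin and the subunit with the highest RPKM of all 38, had 668 and 697 CPM in shCON and 616 and 695 CPM in shZDHHC15. Its groups overlapped too, and the interval of its log2 fold change ran from -0.25 to 0.13 (adjusted p = 0.638).

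LAMC1 (chr1:183023460-183145592, plus strand), the gamma chain shared by most laminins, had 382 and 375 CPM in shCON and 473 and 474 CPM in shZDHHC15. The replicates lay close together and the groups apart. The log2 fold change was 0.32 ± 0.09 with an adjusted p of 0.00708, which became 0.0685 without shZDHHC15 replicate 1 and 0.0693 without shZDHHC15 replicate 2. LAMC3 had 6.64 and 6.22 CPM in shCON and 8.27 and 5.96 CPM in shZDHHC15 and was not called (adjusted p = 0.621).

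**Figure D4:**
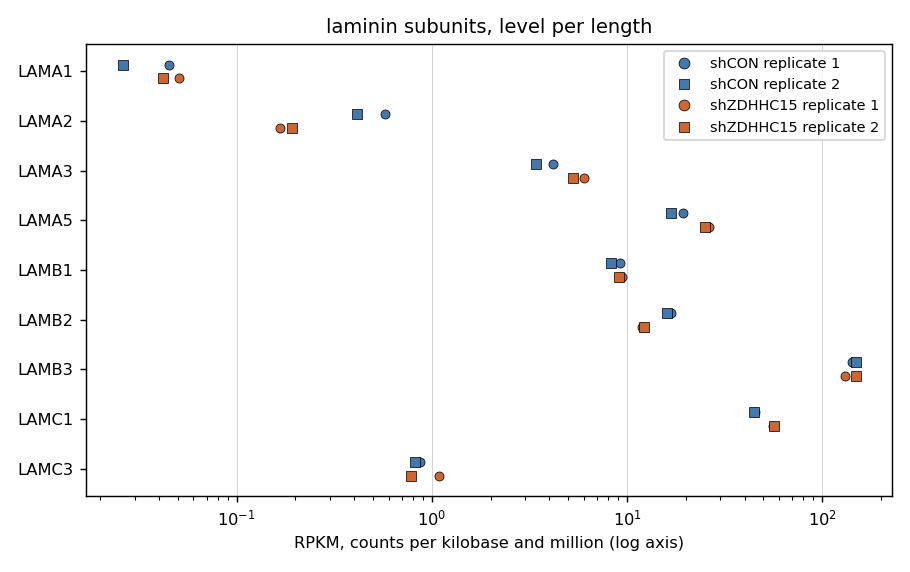
RPKM on a log axis of tested laminin chains in each of the 4 samples, with blue points for shCON, orange points for shZDHHC15, circles for replicate 1 and squares for replicate 2. LAMB3 lies at a mean of 146 RPKM in shCON and 140 RPKM in shZDHHC15, and LAMA3 at a mean of 3.79 and 5.63 RPKM.

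The alpha and beta chains of the anchoring laminin were unequal in level. LAMB3 averaged 146 RPKM in shCON and 140 RPKM in shZDHHC15, and LAMA3 averaged 3.79 and 5.63 RPKM. Per kilobase, LAMB3 exceeded LAMA3 by 38.9 ± 6.8 times (SD, n = 2) in shCON and by 25.0 ± 4.3 times in shZDHHC15. Of 14 known trimers, 4 had all chains above 1 RPKM in every sample, and these joined LAMA3 or LAMA5 with LAMB1 or LAMB2 and with LAMC1. In the trimer of LAMA5, LAMB2 and LAMC1, the alpha and gamma chains rose while LAMB2, the chain with the lowest RPKM at 16.3 ± 0.5 in shCON and 12.0 ± 0.2 in shZDHHC15, fell.

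Promoter windows of 3 laminin genes are shown because they held matches to motifs searched and belong to chains that fell (LAMA2), rose (LAMA3) or did not pass the test (LAMB3). The TEAD site GGAATG, shown in capitals, begins 167 bases upstream of the start of LAMA2, and among the windows of the 26 subunits it was found for ITGA5, ITGA10, ITGB1 and LAMA2. These were 12.1% of the windows of subunits, beside 11.9% of all 35116 windows. The AP-1 site TGANTCA was found in 2 windows of subunits (6.06%, beside 6.57% of all windows). It occurs in LAMA3 at 125 and 69 bases upstream, where the window lies inside the gene before the start of its shorter transcripts. In LAMB3 it occurs at 67 bases upstream in 1 of its 3 windows, and that window also lies inside the gene. The other windows of LAMB3, which span the start of the gene, held no match. The interferon-response pattern was found for ITGB5 alone, 3.03% of the windows of subunits beside 3.02% of all windows. None of the 3 motifs was thus more frequent among the windows of subunits than among all windows by more than a fraction of a percentage point, and a match is a run of letters and not evidence of binding.
LAMA2, chr6:128882888-128883137, plus strand: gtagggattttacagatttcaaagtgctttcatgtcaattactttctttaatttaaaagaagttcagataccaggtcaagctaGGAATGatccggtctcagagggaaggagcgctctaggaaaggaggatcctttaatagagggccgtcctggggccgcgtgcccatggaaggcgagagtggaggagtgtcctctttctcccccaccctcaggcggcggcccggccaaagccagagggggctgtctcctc
LAMA3, chr18:23872770-23873019, plus strand: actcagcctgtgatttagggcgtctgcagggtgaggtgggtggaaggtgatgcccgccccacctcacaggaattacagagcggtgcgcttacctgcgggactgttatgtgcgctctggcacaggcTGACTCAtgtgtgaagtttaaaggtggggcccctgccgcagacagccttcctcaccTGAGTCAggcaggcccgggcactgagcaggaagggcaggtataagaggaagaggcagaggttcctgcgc
LAMB3, chr1:209651375-209651624, minus strand: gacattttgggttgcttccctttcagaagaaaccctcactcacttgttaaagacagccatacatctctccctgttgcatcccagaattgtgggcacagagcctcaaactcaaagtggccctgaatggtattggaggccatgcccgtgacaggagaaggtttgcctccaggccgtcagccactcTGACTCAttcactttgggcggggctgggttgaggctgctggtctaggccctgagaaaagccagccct

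The genes that work with these subunits were read from 5 lists in the same fit, beside the 21.7% of all tested genes called higher and 20.3% called lower and their median of 0.02. Of 14 tested basement membrane partners of laminins, 5 were higher (35.7%) and 0 lower, with a median log2 fold change of 0.28. COL4A1, a chain of the collagen network that is joined to laminin, had 1.26 and 0.711 CPM in shCON and 7.09 and 7.79 CPM in shZDHHC15 (log2 fold change 2.89 ± 0.29, adjusted p = 2.25e-06). COL4A2, the chain with which it assembles, also rose from a low level (1.17 ± 0.31, adjusted p = 0.0074). The other 3 were the heparan sulfate proteoglycans AGRN (0.81, adjusted p = 3.08e-06) and HSPG2 (1.03, adjusted p = 0.000166) and the matrix protein FRAS1 (0.36, adjusted p = 0.0393). The DESeq2 Wald test called 3 of the list higher.

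Of 20 tested ligands of integrins other than laminins, 8 were higher (40.0%) and 3 lower (15.0%), with a median log2 fold change of 0.20. Without shZDHHC15 replicate 1 the count of higher ligands was 5. SPP1 (osteopontin), a ligand of ITGAV pairs, had 2 and 3 counts in shCON and 100 and 77 counts in shZDHHC15, a ratio of 32.5 with an exact 95% counting interval from 13.7 to 101. FBLN5, an elastic-fibre protein with an integrin-binding motif, rose by 1.83 ± 0.36 on the log2 scale (adjusted p = 0.000956). TNC (tenascin-C), a ligand of ITGAV pairs, rose by 1.13 ± 0.09 (adjusted p = 1.14e-07). FN1 (fibronectin), which binds pairs of ITGAV and that of ITGA5, rose by 0.46 ± 0.10 (adjusted p = 0.00196). The 3 falls were of CYR61 (-2.79 ± 0.17, adjusted p = 8.74e-09), CTGF (-2.36 ± 0.17, adjusted p = 7.16e-08) and THBS1 (-2.35 ± 0.14, adjusted p = 7.76e-09). They encode secreted matricellular proteins that bind integrins and are known targets of YAP. YAP1, the gene of YAP, had 426 and 416 CPM in shCON and 55.0 and 64.8 CPM in shZDHHC15. Its part in these falls was not tested.

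Of 9 tested hemidesmosome genes and laminin receptors outside the integrins, 2 were higher (22.2%) and 4 lower (44.4%), with a median of -0.13. DST, a plakin that ties ITGB4 to keratin, had 84.6 and 46.4 CPM in shCON and 174 and 152 CPM in shZDHHC15 (1.31 ± 0.19, adjusted p = 5.49e-05). SDC1, a syndecan that binds laminin, rose by 0.36 (adjusted p = 0.00934). BCAM, a receptor for laminins with LAMA5, fell by 0.72 (adjusted p = 4.38e-05), and CD151, a tetraspanin that binds the laminin-binding integrins, fell by 0.66 (adjusted p = 7.31e-05). One gene of the list was called higher without shCON replicate 1, without shZDHHC15 replicate 1 and without a filter on low counts.

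Of 32 tested adaptors and activators on the cytoplasmic side, 8 were higher and 8 lower (25.0% each, near the shares of all genes), with a median of -0.15. TNS1 (tensin 1), which links beta tails to actin, rose by 1.58 ± 0.19 (adjusted p = 1.51e-05), and KANK1, which binds talin at the rim of adhesions, by 1.02 ± 0.15 (adjusted p = 7.7e-05). PXN (paxillin) and ACTN1 (alpha-actinin 1), core proteins of focal adhesions, fell by 0.53 ± 0.10 (adjusted p = 0.000567) and 0.53 ± 0.09 (adjusted p = 0.000274). The split was 10 higher and 6 lower with library size only, and without shZDHHC15 replicate 1 the count of lower adaptors was 2. Of 10 tetraspanins and lateral partners, 3 were higher (30.0%) and 6 lower (60.0%), with a median of -0.43. CD82 (0.94 ± 0.10, adjusted p = 2.63e-06) and TSPAN1 (0.80 ± 0.21, adjusted p = 0.0068), both tetraspanins, rose. SLC3A2, the amino acid transporter chain that binds beta tails (-0.89 ± 0.09, adjusted p = 3.46e-06), and PLAUR, the urokinase receptor (-0.54 ± 0.10, adjusted p = 0.000691), fell.

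**Figure D5:**
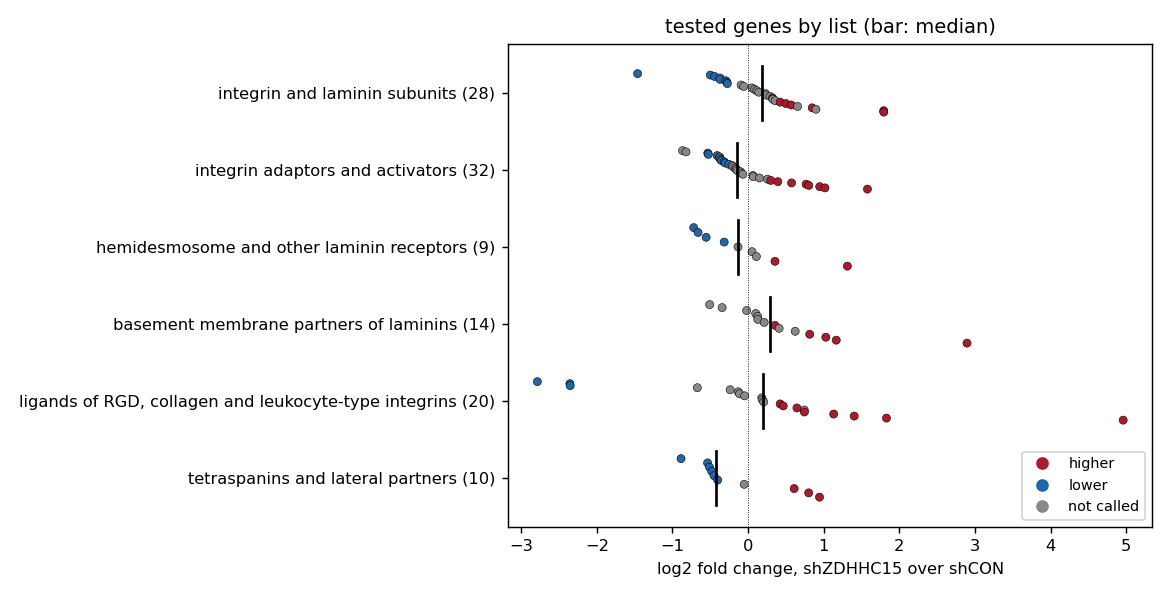
Fitted log2 fold change of shZDHHC15 over shCON for the tested genes of the subunits and of the 5 lists, with the number tested in brackets, red for higher, blue for lower, grey for not called, and a black bar at each median. Medians run from -0.43 for tetraspanins and lateral partners to 0.28 for basement membrane partners, and the point of SPP1 at the far right depends on the prior count because its shCON counts were 2 and 3.

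Among the 14 calls of subunits, the 7 of ITGA1, ITGAL, ITGB6, LAMA2, LAMA3, LAMA5 and LAMB2, held under all 9 alternatives that kept all samples and without each sample in turn. The calls of ITGA5 and ITGAE were lost against a fold change of 1.2 alone. The remaining 5, ITGA2, ITGA3, ITGB4, ITGB5 and LAMC1, were each lost without at least 1 of the samples.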

How the data were processed

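RNA of HCC1954 cells was sequenced from 4 samples, 2 shCON and 2 shZDHHC15. The authors deposited 1 table of raw, unnormalised read counts per gene, with each gene's position and exon length. The submitters' processing notes name HISAT2, StringTie, SAMtools and hg38. The counting tool and its use of strand are not given in the sources used here, so the treatment of reads on exons of 2 genes is unknown. All 58735 gene identifiers matched GENCODE release 29 (GRCh38) in start and end, and the given length of each of the 38 subunit genes equalled the union of its exons.

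The filter filterByExpr kept 15817 genes. They were tested in R 4.3.3 with edgeR 4.0.16 by glmQLFTest after TMM scaling and glmQLFit (legacy = FALSE), with group as the only term. P-values were adjusted over all 15817 genes by the Benjamini-Hochberg method, and an adjusted p under 0.05 was a call. CPM used the TMM-scaled library sizes, RPKM was CPM per kilobase of exon, and shares of subunits were taken from RPKM within each sample. Intervals of fold changes are 95% intervals of the same fit, which was tested on simulated data. Intervals on counts cover counting error only, and the limit set by an observed 0 is 3 counts.

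Subunits were found by symbol among protein-coding genes. They, the pathway lists and the marker lists were chosen with earlier results of these data known. Subunits are described, except for a result that is not reported here, with values in every sample where a group mean reached 10 CPM or the adjusted p was under 0.05. From each pathway list the text names the 2 largest rises and the 2 largest falls among called genes whose groups did not overlap, and any other gene named was chosen after its values were seen. Promoter windows of 250 bases came from RefSeq (GRCh38.p14) and were searched on both strands.

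Alternatives were 3 other scalings (size factors of DESeq2, library size alone, upper quartile), the Wald test of DESeq2 1.42.0, filters of none or of 10 counts in each sample, the older quasi-dispersion of edgeR, the sample number as a replicate block, glmTreat at a fold change of 1.2, and fits without 1 sample, in which the lone sample was assumed to vary like the others. Levels and shares were also computed from unscaled libraries and without division by length. A share within a sample cannot change with the scaling of that sample, so only the omission of length bears on the shares.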

Additional observations from a re-analysis of the deposited data

How the results depend on the processing

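No called subunit changed sign. Over the 9 alternatives with all samples, 250 values of subunits gave 236 on the same side of the threshold with the same sign, 12 no longer past it, 1 newly past it and 1 of the other sign. With a sample left out, 112 values gave 93, 10, 3 and 6. The other signs were all of subunits not called in either fit. The log2 fold change of LAMB3 was 0.017 with library size only. With a sample left out, the log2 fold changes ran from -0.154 to 0.0243 for LAMB3, from -0.220 to 0.0045 for ITGAV, from -0.123 to 0.195 for ITGB2, from -0.0588 to 0.558 for ITGB8, from -0.204 to 0.637 for ITGA10 and from -0.112 to 0.356 for LAMC3. Lower subunits numbered 7, but 4 with library size only, 2 against a fold change of 1.2 (glmTreat), and 3 to 6 with a sample left out. Among alpha subunits the lower count was 0 by glmTreat and 1 to 3 with a sample left out. Among beta subunits it was 0 with library size only, 1 with no filter, 0 by glmTreat and 0 to 2 with a sample left out, and the higher count was 1 to 2. Lower adaptors numbered 2 by glmTreat and 2 to 8 with a sample left out. Higher hemidesmosome genes numbered 1 with no filter, 1 by glmTreat and 1 to 2 with a sample left out. Higher basement membrane partners numbered 3 by the DESeq2 Wald test, and higher ligands 5 to 7 with a sample left out. Without division by length, ITGB6 made up 53.5% of its set and ITGA3 42.8% of the alpha partners of ITGB1 in shZDHHC15. Over all genes 6644 were called, and 4157 by glmTreat. The cause of these changes was not tested.

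With the replicate number as a block (replicate block), 7 subunits were higher and 7 lower and 7225 genes were called in all. The differences between replicates 1 and 2 correlated at 0.0344 between groups, which gave no sign of pairing by number. With 1 such difference in each group, whether samples of the same number shared a batch cannot be told. The 10 subunits that did not exceed 12 counts, such as ITGA4 and LAMB4, were too shallow to test, and 2 samples a group limit every value.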
